A study of Arabidopsis thaliana with 10 samples.

Results

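The genes described here are markers and regulators of the salicylic acid response of Arabidopsis, with SAG29, a gene of leaf senescence. They are 7 of the 22746 probe sets measured. GRX480, SAG101, UGT76B1 and SAG29 were found by their symbols. PR1, PR2 and PR5 were read from 3 probe sets that the gene table used here leaves unnamed, and their names are those given to these probe sets when the genes were chosen. Each gene was read from 1 probe set. The loci are AT2G14610 (PR1), AT3G57260 (PR2), AT1G75040 (PR5), AT1G28480 (GRX480), AT5G14930 (SAG101), AT3G11340 (UGT76B1) and AT5G13170 (SAG29). All 7 were above control level, the brightest Bacillus control probe set of an array, on all 10 arrays.

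Rosettes of 42 days were profiled on single-colour arrays in 3 genotypes: wild type Col 0 (n = 3 arrays), abi4-102 (n = 3) and vtc1 (n = 4). The vtc1 line is named for its vitamin C defect, which in the literature lies in an enzyme of ascorbate synthesis, and abi4-102 carries a mutation of ABI4, a transcription factor of abscisic acid responses. All plants grew on compost in short days, without a further treatment in the labels. Replicates are called biological in the labels, which do not say whether one is a single plant or a pool, and each mutated gene is represented by 1 line, so effects of the line and of the gene cannot be told apart. The genotypes are as labelled and were not checked against transcripts of the mutated genes here.

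Salicylic acid is a defence hormone of plants. In leaves it is made after pathogen attack and in ageing tissue, and it acts through the NPR1 co-activator and TGA transcription factors, which switch on the pathogenesis-related (PR) genes. The lipase-like proteins of the EDS1 family act upstream of its synthesis, and glucosyltransferases store or inactivate the hormone and related signals.

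Arrays of 1 genotype correlated at 0.9972 to 0.9985, those of different genotypes at 0.9854 to 0.9898. The measured markers of green leaf, 5 of 12 listed, summed to 30176 to 30668 on wild-type arrays. They summed to 26159 to 27787 for abi4-102 and 27401 to 28294 for vtc1. RCA, PRK and SBPASE were called lower in both mutants (log2 changes -0.16, -0.22 and -0.51 in vtc1, -0.36, -0.67 and -0.28 in abi4-102). LHCB4.1 (-0.04 and -0.03) and LHCB4.2 (0.07 and 0.10) were called in neither. Of 2 measured root markers, which summed to 33.2 to 38.0 on wild-type arrays, 25.5 to 31.1 for abi4-102 and 28.8 to 33.5 for vtc1, PYK10 lay at control level on every array. The other, EXPA7, was dim and fell in both mutants, by 0.34 (log2) in vtc1 and 0.41 in abi4-102 (limma adjusted p = 0.012 and 0.0058). PAP85, the only measured marker of flower and seed, lay at control level on every array. The 2 guard cell markers summed to 212 to 224 on wild-type arrays, 287 to 338 for abi4-102 and 167 to 181 for vtc1. They did not move together: AT1G22690 rose in abi4-102 (log2 change 0.66) and fell by 0.40 in vtc1, whereas FMA was called in neither mutant (-0.08 and -0.14). An actin probe set at the 3' end exceeded the one at the 5' end, which reads RNA integrity, by 1.69 to 2.1 (log2) on wild-type arrays. This gap was 1.36 to 1.56 for abi4-102 and 1.49 to 1.67 for vtc1. The part of cell makeup and RNA integrity in the results below was not tested. In whole rosettes, more cells that express a gene and more RNA per cell cannot be told apart.

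All 7 genes were called higher in vtc1 than in wild type, and 5 of 7 in abi4-102. Of all probe sets, 18.1% were called higher in vtc1 and 18.8% in abi4-102. The median log2 change of the 7 genes was 0.95 in vtc1, against -0.03 over all probe sets, and 0.45 in abi4-102, against -0.01. In vtc1 the arrays of all 7 genes lay above every wild-type array, which held for 20.3% of all probe sets, and in abi4-102 those of 5 genes did, against 22.9%. Between the mutants the arrays of 5 genes lay higher in vtc1 without overlap, against 19.0%. Between the mutants, 5 of the 7 were called higher in vtc1 and none lower, against 17.8% of all probe sets called higher and 21.2% lower. The same wild-type arrays serve both mutant comparisons.

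PR1 encodes a small secreted protein that is the usual marker of the salicylic acid response. Its intensity was 3079, 3274 and 3237 on the wild-type arrays, 5396, 4875 and 4882 in abi4-102, and 6165, 6095, 6327 and 6160.3 in vtc1. The 3 genotypes did not overlap, with wild type lowest and vtc1 highest. PR1 rose 1.94-fold in vtc1 (95% interval 1.77 to 2.11, limma adjusted p = 2.4e-09) and 1.58-fold in abi4-102 (1.44 to 1.73, adjusted p = 7.9e-07). Its level in vtc1 exceeded that in abi4-102 by 1.23-fold (1.12 to 1.34, limma adjusted p = 0.00085). The transcript was bright in every genotype, with a mean of 3197 ± 103 (SD, n = 3) in wild type and 6187 ± 98.9 (n = 4) in vtc1.

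PR2, a beta-1,3-glucanase that attacks fungal cell walls, had the same order. Wild type read 3080.3, 2953 and 2925, abi4-102 read 4402, 4245 and 4101, and vtc1 read 6266, 6804, 6088 and 5775. Every array of abi4-102 lay between those of the other genotypes. The rise was 2.08-fold in vtc1 (95% interval 1.89 to 2.29, limma adjusted p = 1.9e-09) and 1.42-fold in abi4-102 (1.29 to 1.57, adjusted p = 2.9e-05). The mutants differed by 1.46-fold (1.33 to 1.61, limma adjusted p = 6.1e-06). In vtc1 PR2 spread more between arrays than PR1, with a coefficient of variation of 6.92% against 1.60%.

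PR5, a thaumatin-like protein with antifungal activity, gave 2691, 2822 and 2799 in wild type, 3962, 3624.5 and 3802 in abi4-102, and 5647, 5921, 5865 and 5596 in vtc1. Again no array of one genotype reached into the range of another. PR5 rose 2.08-fold in vtc1 (95% interval 1.91 to 2.26, limma adjusted p = 5.5e-10), the smallest adjusted p of the 7 genes. In abi4-102 it rose 1.37-fold (1.25 to 1.5, limma adjusted p = 3.0e-05), and vtc1 exceeded abi4-102 by 1.52-fold (1.39 to 1.65, adjusted p = 8.3e-07). Of all probe sets, 1.52% had a larger increase in vtc1 than PR5, and 6.71% had one in abi4-102. For PR1 these shares were 1.88% and 3.07%. The difference between the PR genes in their response to abi4-102 was not tested.

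**Figure D1:**
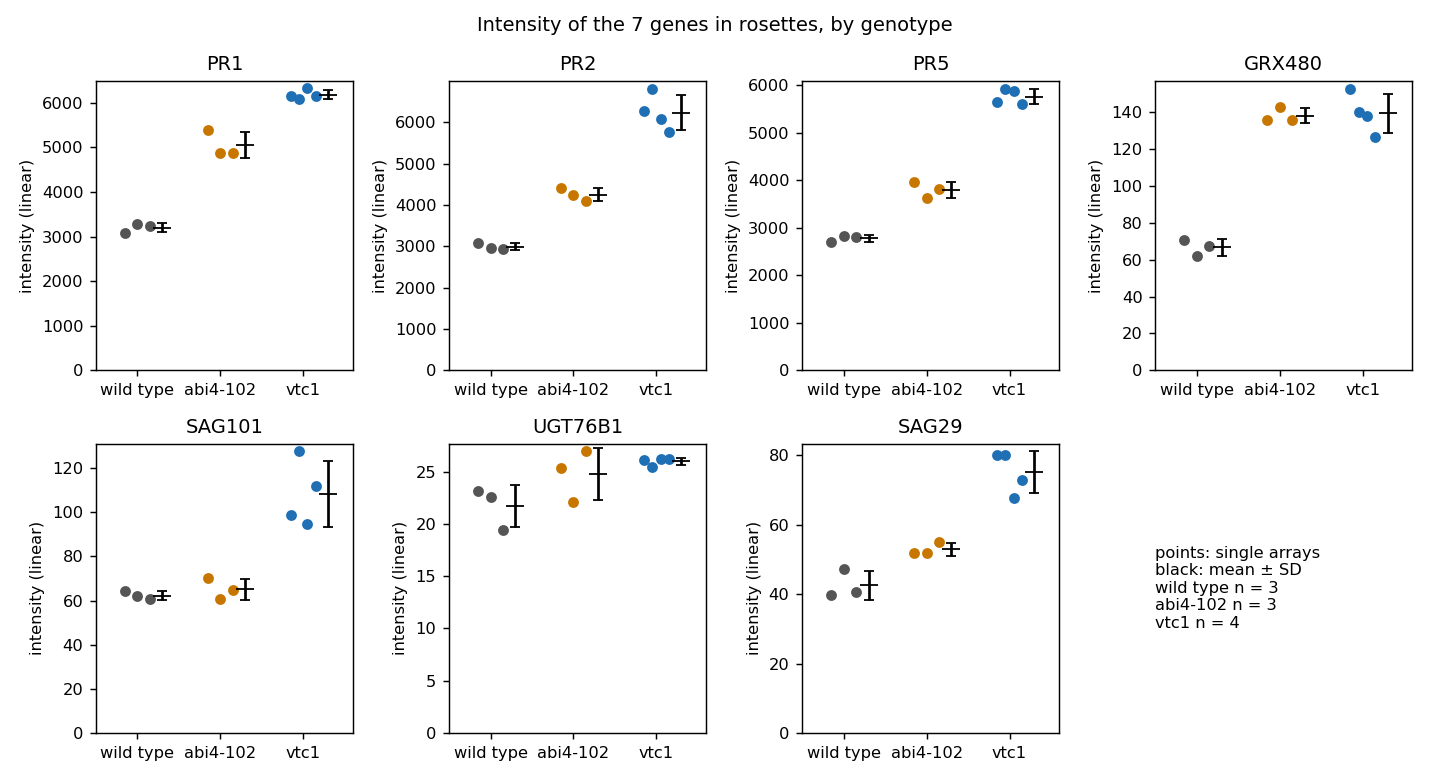
Linear intensity (y axes, from 0) of the 7 genes on each of the 10 arrays by genotype (x axes). Points are arrays and black marks are the mean ± SD (n = 3, 3 and 4). PR1, PR2, PR5 and SAG29 step up from wild type through abi4-102 to vtc1, GRX480 is equally high in both mutants, and SAG101 is high in vtc1 alone.

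GRX480 is a glutaredoxin that binds TGA factors and links salicylic acid to the jasmonate pathway. It did not follow the genotype order of the PR genes, though this contrast was not tested. Its wild-type arrays read 71.0, 61.9 and 67.4, those of abi4-102 read 136, 143 and 136, and those of vtc1 read 153, 141, 138 and 127. Both mutants lay well above wild type, and the abi4-102 arrays lay within the range of the vtc1 arrays. The rise was 2.07-fold in vtc1 (95% interval 1.87 to 2.30, limma adjusted p = 5.9e-09) and 2.06-fold in abi4-102 (1.84 to 2.30, adjusted p = 3.1e-08). The ratio of vtc1 to abi4-102 was 1.01 (0.909 to 1.12, limma adjusted p = 0.93), so a difference of more than 1.12-fold in either direction lay outside the interval. In abi4-102 only 0.989% of all probe sets had a larger increase than GRX480.

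SAG101, a lipase-like partner of EDS1 in immune signalling that was first found in senescing leaves, was higher in vtc1 alone. Wild type gave 64.3, 61.9 and 60.5 and abi4-102 gave 70.2, 60.7 and 64.6, whereas vtc1 gave 98.6, 128, 94.8 and 112. The abi4-102 arrays enclosed most of the wild-type range, and every vtc1 array lay above both. SAG101 rose 1.72-fold in vtc1 against wild type (95% interval 1.51 to 1.96, limma adjusted p = 2.9e-06) and was 1.64-fold higher than in abi4-102 (1.44 to 1.87, adjusted p = 1.0e-05). Its ratio of abi4-102 to wild type was 1.04 (0.908 to 1.2, limma adjusted p = 0.67). The 4 vtc1 arrays spread widely, with a coefficient of variation of 13.8%, the largest of any of the 7 genes in any genotype.

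UGT76B1, a glucosyltransferase that conjugates salicylic acid and related immune signals, was the dimmest of these transcripts relative to control level and had the smallest change. It read 23.1, 22.6 and 19.4 in wild type, 25.4, 22.1 and 26.9 in abi4-102, and 26.2, 25.5, 26.2 and 26.2 in vtc1. The vtc1 arrays lay above wild type, and those of abi4-102 overlapped both. The 1.19-fold rise in vtc1 (95% interval 1.07 to 1.33, limma adjusted p = 0.014) lost its call when array 3 of wild type was omitted (log2 change 0.18) and when arrays were centred on their medians (0.20). The ratio of abi4-102 to wild type was 1.14 (1.01 to 1.28, limma adjusted p = 0.089), and without abi4-102 replicate 2 the change was called (log2 change 0.26). The ratio of vtc1 to abi4-102 was 1.05 (0.94 to 1.17, limma adjusted p = 0.51).

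SAG29, also named SWEET15, is a sucrose exporter that is induced in senescing leaves. Its intensity was 39.7, 47.3 and 40.5 in wild type, 51.8, 52.0 and 55.2 in abi4-102, and 80.0, 80.1, 67.8 and 72.8 in vtc1. As for the PR genes, the genotypes did not overlap and abi4-102 lay in the middle. SAG29 rose 1.75-fold in vtc1 (95% interval 1.57 to 1.96, limma adjusted p = 3.5e-07) and 1.24-fold in abi4-102 (1.1 to 1.4, adjusted p = 0.0062). Between the mutants the difference was 1.41-fold (1.26 to 1.58, limma adjusted p = 8.0e-05).

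**Figure D2:**
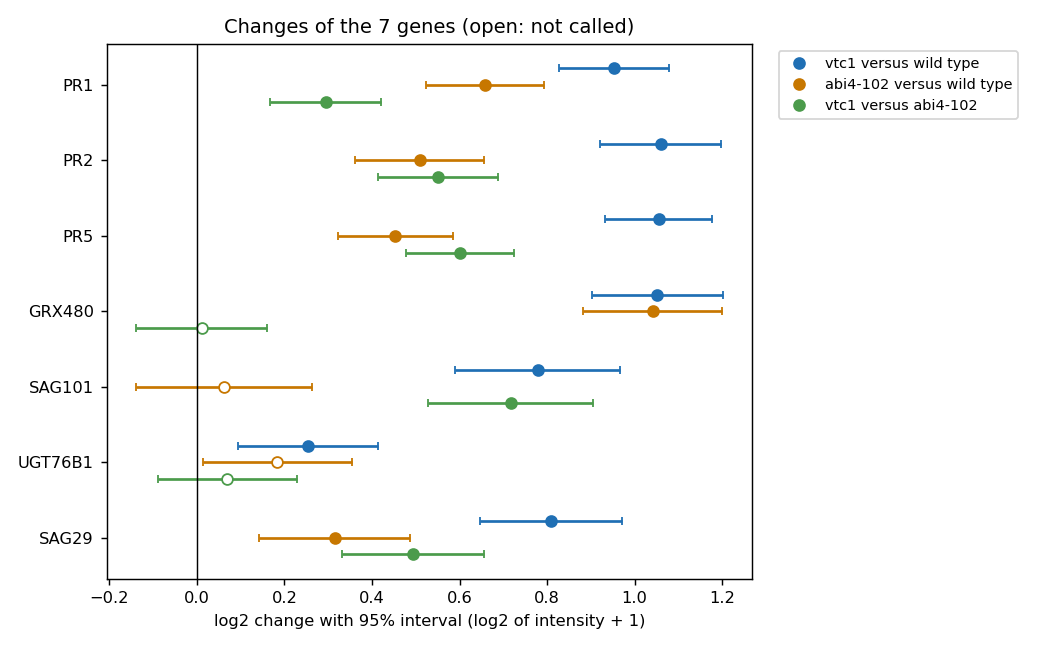
Log2 change (x axis) of each of the 7 genes (y axis) in the 3 comparisons, with 95% intervals from limma. Filled points passed an adjusted p of 0.05 and open points did not. The vtc1 changes of PR1, PR2, PR5 and GRX480 lie between 0.95 and 1.06, and the interval of GRX480 between the mutants spans 0.

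The order of the genotypes differed among the 7 genes. PR1, PR2, PR5 and SAG29 were lowest in wild type, higher in abi4-102 and highest in vtc1, with each step called. GRX480 was higher in both mutants, whose order did not exceed the spread, and SAG101 was higher in vtc1, with wild type and abi4-102 within the spread of each other. For UGT76B1 the only called difference was between the ends of the order, wild type and vtc1. Over the 10 arrays the closest pair was PR2 and PR5, whose log2 profiles, each centred on its own mean, differed by 0.0644 (root mean square). The most distant pair was GRX480 and SAG101, at 0.423. Hybridization spike-in controls averaged 8.43 to 8.73 (log2) on vtc1 arrays, below the 8.76 to 8.88 of the other arrays. Scaling on them moved the median change of all probe sets in vtc1 against wild type to 0.21, and all 7 genes were called higher under it too, from 0.49 for UGT76B1 to 1.29 for PR2, PR5 and GRX480. Of all probe sets, 10274 of 22746 were called higher in vtc1 under that scaling, against 4123 without it.

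Few other genes of these pathways had a probe set of their own in the annotation used: 20 of 110 listed, of which 12 are SWEET transporters. Of the 20, 7 were called higher and 4 lower in vtc1, and 9 higher and 2 lower in abi4-102. Of all probe sets 18.5% were called lower in vtc1 and 16% in abi4-102. The median log2 change of the 20 was 0.05 in vtc1 and 0.13 in abi4-102.

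WRKY53 was the only measured gene of 22 listed for salicylic acid perception and signalling. This transcription factor promotes leaf senescence and takes part in defence. It read 29.9, 30.9 and 33.9 in wild type, 154, 156 and 140.1 in abi4-102, and 161, 171, 176 and 158 in vtc1. Both mutants lay far above wild type, by 5.14-fold in vtc1 and 4.64-fold in abi4-102. The ratio between the mutants, 1.11, was not called (limma adjusted p = 0.097), although the arrays did not overlap and it was called under spike-in scaling (log2 change 0.35). As for GRX480, both mutants were called higher than wild type and the step between them was not called. For GRX480, however, the arrays of the mutants overlapped.

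In the list of the EDS1 node and systemic resistance, 2 of 17 genes were measured and both were called higher in both mutants. AT3G48080 read 21.3, 18.3 and 20.2 in wild type, 38.1, 45.1 and 40.6 in abi4-102, and 77.9, 69.5, 66.7 and 71.8 in vtc1. The genotypes did not overlap, and the rise was 3.46-fold in vtc1 and 2.02-fold in abi4-102, with a difference of 1.72-fold between the mutants (limma adjusted p = 8.6e-07). AT5G52810 rose 2.23-fold in vtc1, to 372 ± 7.47 (SD, n = 4), and 2.22-fold in abi4-102, to 370.2 ± 24.6 (n = 3), from 166 ± 9.64 (n = 3). Its mutants did not differ beyond their spread (ratio 1.01, adjusted p = 0.93). The 2 loci carry no further name in the gene table used here.

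Salicylic acid synthesis and modification had 2 measured genes of 16. The salicylic acid glucosyltransferase UGT74F1 was not called in any comparison, with log2 changes of -0.04 in vtc1 and 0.002 in abi4-102. BSMT1, a methyltransferase of salicylic and benzoic acid, was called higher in vtc1 (log2 change 0.27), but it lay at control level on every array, so no fold is given. None of the 12 listed other PR and salicylic acid-responsive proteins was measured.

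The senescence list, with 3 of 30 genes measured, did not move one way. WRKY6, a transcription factor of senescence and defence, rose 1.59-fold in vtc1, to 53.3 ± 1.80 (SD, n = 4), and 1.85-fold in abi4-102, to 62.0 ± 1.81 (n = 3), from 33.1 ± 0.969 (n = 3). Unlike SAG29, it was lower in vtc1 than in abi4-102 (log2 change -0.22, limma adjusted p = 0.0065), a call lost under spike-in scaling (-0.01). NOL, a chlorophyll b reductase of chlorophyll breakdown, fell by 0.31 on the log2 scale in vtc1, from 176 ± 6.0 to 142 ± 4.86, and was not called in abi4-102 (-0.05). Under spike-in scaling the change of NOL in vtc1 was not called (-0.07). WRKY22, a transcription factor of immune signalling and dark-induced senescence, was called in abi4-102 (log2 change 0.49), where 1 of 3 arrays was above control level. It lay at control level on every array of wild type and vtc1, so no fold is given.

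Among 12 measured SWEET sugar transporters, the family of SAG29, 2 were called higher and 3 lower in vtc1, and 4 higher and 2 lower in abi4-102. Of all probe sets, 18.1% were called higher and 18.5% lower in vtc1, and 18.8% higher and 16% lower in abi4-102. The lower calls include SWEET3 in vtc1, at control level on every vtc1 array. They also include SWEET10 in abi4-102, at control level on every array of wild type and abi4-102. No fold is given for either. SWEET13 and SWEET11, sucrose transporters of the same clade as SAG29, rose 1.53-fold and 1.29-fold in vtc1, to 151 ± 11.8 and 1189 ± 66.8 (SD, n = 4). In abi4-102 SWEET13 rose 1.34-fold, and SWEET11 was not called (log2 change 0.15). SWEET17 and SWEET16, sugar transporters of the vacuolar membrane, fell by 0.55 and 0.46 on the log2 scale in vtc1, and with spike-in scaling SWEET16 lost its call (-0.23). In abi4-102 SWEET17 fell by 0.24, a call lost without wild type replicate 1 or 2, without abi4-102 replicate 2, under spike-in scaling and with only these genotypes in the model. SWEET2, another transporter of the vacuolar membrane, rose 1.32-fold in abi4-102 and had a log2 change of -0.02 in vtc1, not called. SWEET5 lay at control level on every wild-type array and was at least 1.06-fold higher in abi4-102 (limma adjusted p = 0.006). In abi4-102 it was above control level on 2 of 3 arrays.

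Relatives of GRX480 and PR1 gave a mixed picture. GRXC1, a glutaredoxin of another class, rose 1.62-fold in vtc1 and 1.81-fold in abi4-102, to 357 ± 19.4 (SD, n = 4) and 398 ± 19.4 (n = 3) from 220.3 ± 11.5 (n = 3). GRXC2 and ROXY1 were not called in either mutant, and ROXY2 lay at control level on every array. PR-1-LIKE, a relative of PR1 by its annotated name, read 18.3, 15.04 and 17.7 in wild type, 40.6, 30.7 and 24.7 in abi4-102, and 13.0, 14.9, 14.1 and 15.4 in vtc1. It was high in abi4-102 only, and every vtc1 array lay at control level, so that it was at least 1.91-fold higher in abi4-102 than in vtc1 (limma adjusted p = 3.6e-06). PR1 had the opposite order of the mutants.

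**Figure D3:**
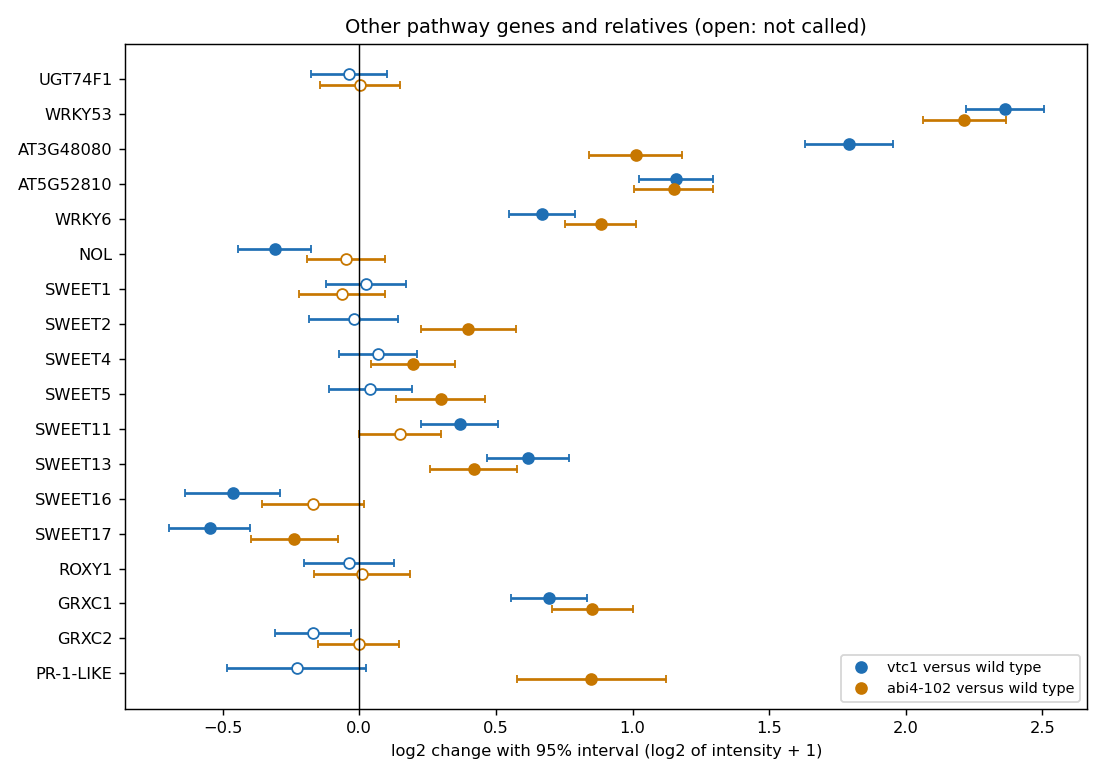
Log2 change with 95% interval (x axis) of 18 other pathway genes and relatives (y axis) in each mutant against wild type. A further 7 genes, above control level on fewer than 3 arrays, are not drawn. WRKY53 stands farthest to the right in both mutants, and PR-1-LIKE is above 0 in abi4-102 and not called in vtc1.

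The genes with the most similar profile over the 10 arrays were sought for each member with a called log2 change of at least 0.5. Candidates were 8683 or 8684 other probe sets with 1 gene, above control level on at least 3 arrays. Unnamed probe sets, those of PR1, PR2 and PR5 among them, were not candidates. Similarity was the root mean square difference of centred log2 values, and it is dominated by the differences between the genotypes. AT4G25900 came closest to PR1, at 0.0321, with 337 ± 13.3 (SD, n = 3) in wild type, then 530.3 ± 36.3 (n = 3) for abi4-102 and 642 ± 8.93 (n = 4) for vtc1. The profile nearest to PR2 was AT4G28400 (0.0661) and that nearest to PR5 was AT2G39210 (0.0724), so both lay farther off than PR2 and PR5 from each other. BGLU25, a beta-glucosidase by name, ranked 3 for PR5 at 0.0796. APS4, an ATP sulfurylase of sulfate assimilation, was nearest to GRX480 at 0.0818, with 279 ± 4.82, 579 ± 22.2 and 629 ± 18.3 in the same order of genotypes. CYP71B23, a cytochrome P450, was nearest to SAG101 at 0.0461, with 125 ± 6.38, 131 ± 10.2 and 218 ± 25.0. PPDK, pyruvate orthophosphate dikinase, ranked 3 for SAG101 at 0.0902, with 362 ± 13.0, 363 ± 6.98 and 609 ± 35.5. CYP71B23 was chosen for its likeness to SAG101 on these arrays, so its high level and wide spread in vtc1 are not separate findings. For SAG29 the nearest was AT5G63410 at 0.0784.

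**Figure D4:**
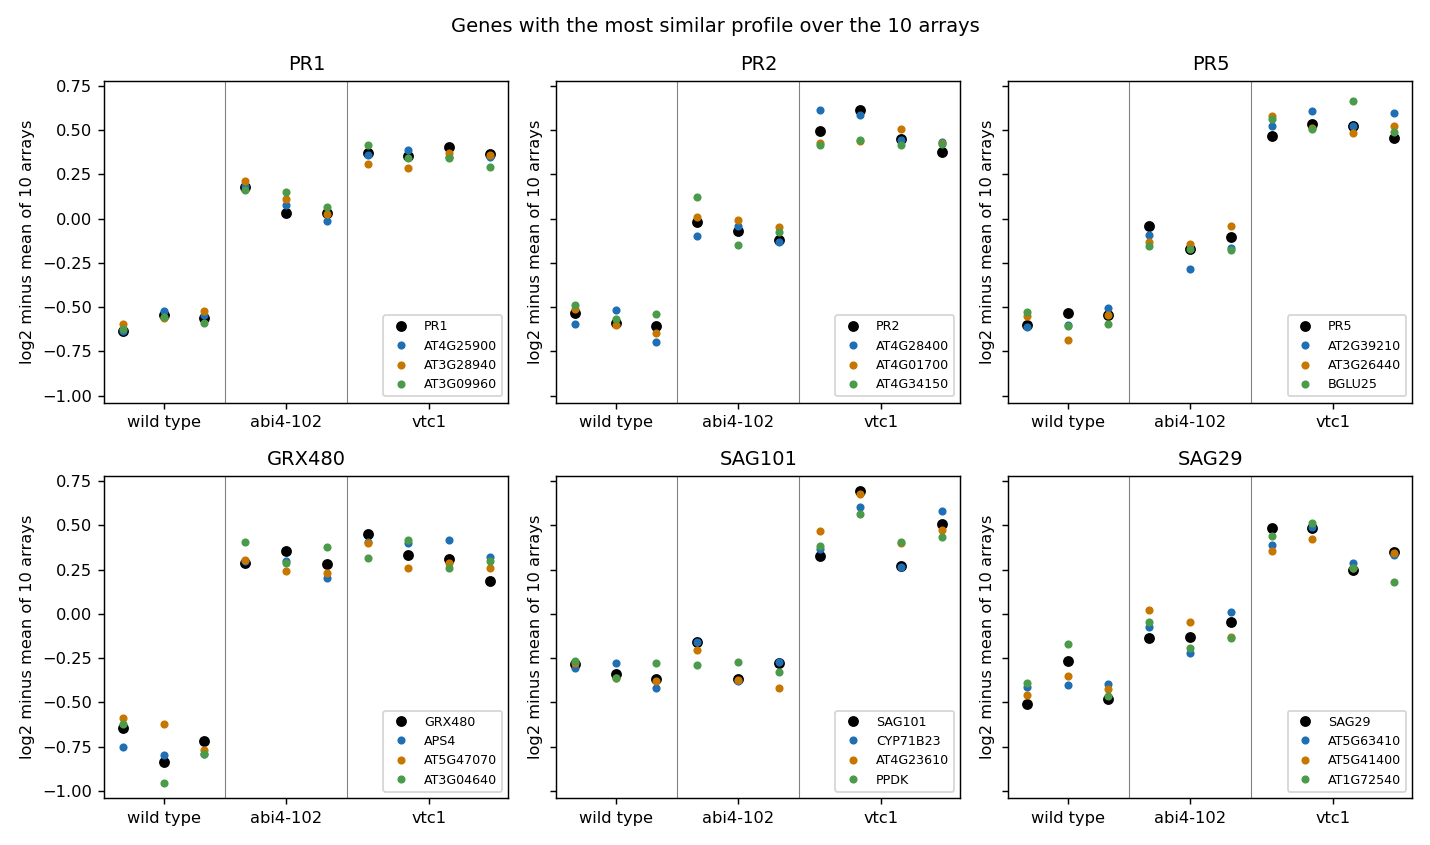
Log2 intensity minus its mean over the 10 arrays (y axes) for 6 members, each with its 3 most similar genes, on every array grouped by genotype (x axes). Black points are the member and coloured points the other genes. The likeness lies mostly in the steps between genotypes. Arrays of 1 genotype need not run in the same order, as in vtc1 for PR1 and AT4G25900 (root mean square difference 0.0321). For SAG101 and CYP71B23 the vtc1 arrays did run in the same order.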

How the data were processed

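Intensities per probe set were deposited by the authors on a linear scale. Their probe summary and their scaling between arrays are not given in the sources used here. After 64 control probe sets were set aside, 22746 probe sets on 10 arrays were used as log2(value + 1), so folds of dim genes are understated. A linear model of genotype was fitted to all arrays (limma 3.58.1, R 4.3.3, lmFit and eBayes, two-sided). Benjamini-Hochberg adjustment ran over all probe sets, and a gene was called at an adjusted p under 0.05. The model was checked on simulated arrays. Control level is the brightest of 27 Bacillus control probe sets on an array, 15.2 to 19.8. Probe sets were named from the platform table and the TAIR10.1 gene table. In them 13513 probe sets had 1 gene, 503 several and 8730 none, and 13436 matched a locus.

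The members, the lists and the tests were chosen with earlier results of these data known. The named genes are the members, up to 4 called genes per list and mutant with the largest change (2 by highest level where none was called), and the 3 genes with the most similar profile to each member called with a log2 change of at least 0.5. Other glutaredoxins and a PR1 relative were added afterwards, from the annotation. SWEET3 and SWEET10 are named only because they were called while at control level in a mutant. The alternatives were a pseudocount of 16, 3 other scalings, a filter on dim probe sets, other model settings and leaving out each array. The number of arrays limits the precision. Figures were drawn with matplotlib 3.10.9 in Python 3.11.15.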

Additional observations from a re-analysis of the deposited data

Results flagged for a closer look

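The vtc1 arrays of UGT76B1 lay very close together except for replicate 2, which read 25.5 against 26.2 on each of the other 3. That gap is large only relative to the narrow range of the group (SD 0.354, n = 4). Such a spacing is found by chance in about 1 in 20 groups, and 22 groups were examined.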

How the results depend on the processing

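Over 19 alternatives, 399 log2 changes of the 7 genes were recomputed, of which 390 kept their direction and their side of the threshold. The filter on dim probe sets, a variance trend with intensity and a model of only the compared genotypes could move calls, not log2 changes. The same holds for omitting an array of the genotype not compared. UGT76B1 lost its call in vtc1 against wild type after subtraction of array medians (0.20) and without wild type replicate 3 (0.18), and gained one in abi4-102 without abi4-102 replicate 2 (0.26) and between the mutants under spike-in scaling (0.27). Changes that turned direction were not called in either setting, and the cause was not tested. Between the mutants these were GRX480 (-0.0275 after subtraction of medians, -0.0327 to 0.0556 with an array left out), UGT76B1 (-0.0081 to 0.1293 with an array left out), AT5G52810 (-0.0296 after subtraction of medians, -0.0421 to 0.0534 with an array left out) and GRXC1 (0.045 under spike-in scaling). In vtc1 against wild type they were SWEET2 (0.21 under spike-in scaling, -0.0837 to 0.012 with an array left out), SWEET5 (-0.0127 after subtraction of medians) and PR-1-LIKE (0.0057 under spike-in scaling). In abi4-102 they were BSMT1 (0.0086 under spike-in scaling, -0.0669 to 0.0001 with an array left out) and NOL (-0.0917 to 0.0042). Of the other named genes' values, 23 lost a call, SWEET13 between the mutants among them, and 10 gained one. Spike-in scaling left 7 pathway genes called between the mutants, against 11, and moved the share of higher calls in vtc1 over all probe sets from 49.5% to 89.4%, and between the mutants from 45.7% to 86.7%; subtraction of medians moved the former to 36.4%. Replicate numbers did not pair the arrays consistently over the 3 comparisons. Deviations of same-numbered arrays correlated at -0.055 to 0.1. Each of replicates 1 to 3 correlated best with its own number in vtc1 against wild type only. The model with the replicate number as a block left out vtc1 replicate 4. It called 7414, 7611 and 7971 probe sets in vtc1, in abi4-102 and between the mutants. With all arrays and no block these were 8327, 7928 and 8872. Omitting that array without a block gave similar counts to the block. In vtc1 3794 were then higher and 3644 lower, against 3764 and 3650 with the block. Between the mutants these were 3787 and 4246, against 3766 and 4205. The fall in calls is thus not a measure of the block alone. No call of the 7 genes changed with the block. For transcripts at control level on every array of a genotype, signal over background limits the level there to a bound.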
